A study of Mus musculus with 12 samples.

Results

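The broad H3K27me3 domains described here are the regions of at least 30 kb in the H3K27me3 list of a female KDM6A-WT mouse pancreatic cancer cell line. They were chosen by the length of the region alone, and 972 of the 30556 listed regions met the rule. ChIP-seq, sequencing of DNA bound to an immunoprecipitated protein or histone mark, was run on cell lines grown in F12/DMEM with EGF and left untreated. The female KDM6A-KO line had lists for KDM6A, MLL4 (antibody KMT2D) and H3K4me1, and the female KDM6A-WT line for those 3 targets and for H3K4me3, H3K27ac and H3K27me3. The male KDM6A-KO and KDM6A-WT lines had lists for H3K4me1. The cell type field of every library, WT included, says that the line came from a Kdm6a-null tumour, so KO and WT are used as the genotype field has them. The labels leave out strain, age, the number of tumours, how the KDM6A-WT lines were obtained and whether a line is 1 clone. The KDM6A lists run against the genotype labels: the library labelled KO had 5961 KDM6A regions and the library labelled WT had 2847. KO and WT below therefore stand for the lines so labelled, and every direction between them rests on those labels. Each group held 1 library. No difference below therefore has a replicate check or a p-value, and ranges in square brackets after a share are 95% exact Clopper-Pearson intervals over regions, which cover counting error only.

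H3K27me3 is laid down by Polycomb repressive complex 2 and marks genes held silent, among them developmental regulators such as the Hox genes. Broad domains of the mark are known to lie over such genes and their neighbourhoods. KDM6A, also called UTX, removes methyl groups from H3K27, and it is a subunit of the complexes of the methyltransferases MLL3 and MLL4, which write H3K4me1 at enhancers. H3K4me3 marks promoters and H3K27ac marks active promoters and enhancers; a promoter with both H3K4me3 and H3K27me3 is called bivalent. H3K27me3 was listed for the female WT line only, so the extent of these domains in the other 3 lines is not known from these data.

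The lists held between 108165 reads in listed regions (MLL4 of WT) and 17526099 (H3K4me3), and the H3K27me3 list held 6577142. Total depth per library is unknown. The whole number given for each region was taken as its read count. Counts were compared within a list only, and lists were compared with each other by the length that their regions cover.

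The 972 domains covered 47.4 Mb. They made up 17.5% of the length and 22.0% of the reads of the H3K27me3 list. Their length ran from 30 to 366.8 kb with a median of 40.6 kb, and 464 were shorter than 40 kb, 320 were 40 to under 60 kb, 148 were 60 to under 100 kb and 40 were at least 100 kb. Long regions were also the dense ones. The median was 28.6 reads per kb in the domains, with a 95% binomial order-statistic interval of 28.3 to 29.0 over regions, against 23.4 in regions of 10 to under 30 kb and 20.8 in regions under 10 kb. Among the domains it was 27.6 reads per kb below 40 kb and 33.3 at 100 kb or longer. Length and read density come from the library that the rule used, so these values are a description and carry no test. Just inside the length limit, the 82 domains of 30 to 31 kb had a median of 27.2 reads per kb and 28 of them held H3K4me3. Just outside it, the 66 regions of 29 to 29.8 kb had 25.3 reads per kb and 13 held H3K4me3.

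The domains were spread unevenly over the chromosomes. A set of 9 chromosomes held 786 of them, or 80.9%, on 47.3% of the mapped span, and these were chromosomes 2, 6, 1, 11, 7, 15, 9, 19 and 5, from 122 domains down to 65. Relative to its span, chromosome 19 had the most, with 11.7 domains per 10 Mb, followed by chromosome 6 with 7.99 and chromosome 11 with 7.91. Chromosomes 16 and X had none, although they held 427 and 412 H3K27me3 regions. Their longest regions were 25 kb on chromosome 16 and 22.8 kb on chromosome X. Read density of short regions moved with this pattern in part. Regions under 10 kb had a median of 23.1 reads per kb on chromosome 19 and 22.8 on chromosome 15, the highest values, and of 19.4 on chromosome X, 19.8 on chromosome 14 and 20 on chromosome 16, the lowest. The part of read depth per chromosome in the number of domains was not tested.

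**Figure D1:**
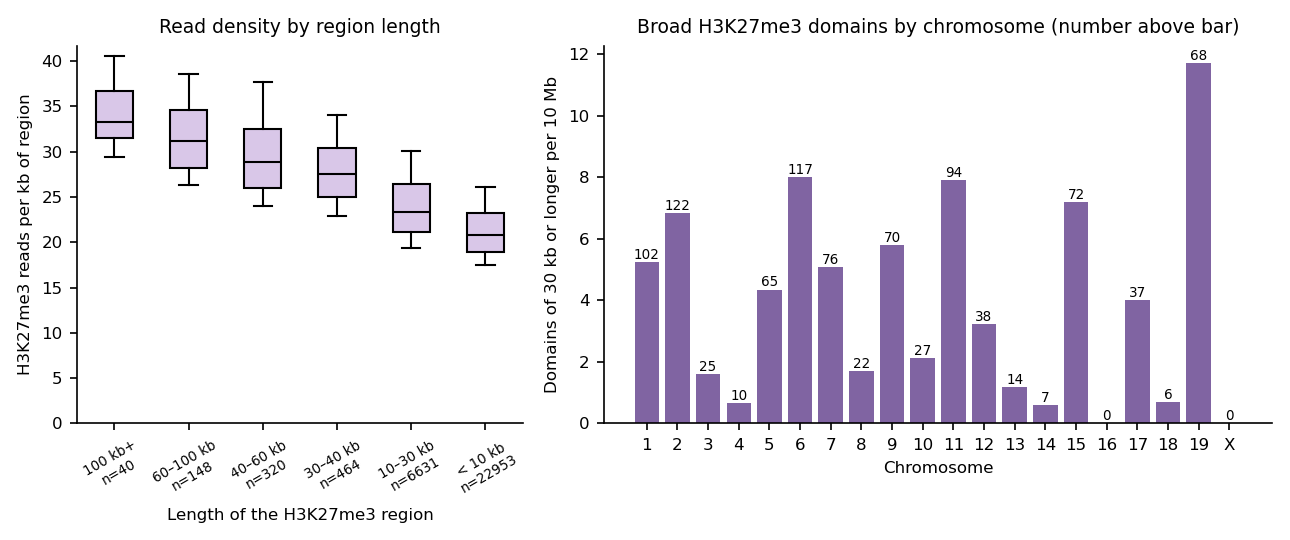
Left, H3K27me3 reads per kb by region length in the female WT line, with the box at the quartiles, the line at the median and whiskers at the 10th and 90th percentiles; right, domains of 30 kb or longer per 10 Mb of each chromosome, with their number above the bar. The median goes up with region length to 33.3 reads per kb at 100 kb or longer, and chromosomes 16 and X hold no domain.

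Domains came in clusters. The nearest other H3K27me3 region was a median of 1.0 kb away and lay within 5 kb for 879 of the 972 domains (90.4%), against 64.0% of the regions under 10 kb. Another domain lay within 100 kb for 571 of them (58.7%), and joining domains across such gaps left 607 groups, the fullest of which held 8 domains each. In mm9 coordinates, these 3 groups were at chr2:165902201-166571200, chr11:118300401-118840800 and chr1:135693601-136232200.

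The longest domain, chr15:102555401-102922200, spanned 366.8 kb with 17226 reads (47.0 per kb), more than double the length of any other. By general knowledge of mm9 it lies over the Hoxc cluster; the domains chr11:96098801-96251200 (152.4 kb, 44.4 reads per kb) and chr6:52088601-52232600 (144.0 kb, 42.3 reads per kb) lie over most of the Hoxb cluster and over the Hoxa cluster. Hox genes encode the homeobox factors that set position along the body axis and are textbook Polycomb targets. No annotation of mm9 was used here, so these names rest on known cluster positions, and no other domain is given a gene. The other domains among the longest 10 were chr7:86625001-86795000, chr6:83522601-83688400, chr15:82737601-82900400, chr2:166933401-167091200, chr6:99533601-99685800, chr19:45292201-45438600 and chr1:182354001-182497000, at 143.0 to 170.0 kb and 28.6 to 42.6 reads per kb. All of the longest 10 but the one on chromosome 1 held an H3K4me3 region. The Hoxa interval had the most of them, with 8 regions over 15.2 kb, and the Hoxb and Hoxc intervals had 4 each, over 8.4 and 6.4 kb. H3K27ac covered 7.4 kb of the Hoxa interval and 1.2 kb of the Hoxc interval, and none was listed in the Hoxb interval.

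The densest domain was chr19:43641001-43705200, with 53.8 reads per kb over 64.2 kb. It was followed by chr15:75539801-75581600, chr11:96844001-96885200, chr7:52427001-52463400 and chr11:98147001-98203800, at 48.6 to 49.4 reads per kb. Each of these 5 held from 2 to 5 H3K4me3 regions and H3K4me1 in at least 3 of the 4 H3K4me1 lists. The 5 least dense domains had 19.7 to 20.2 reads per kb and lay at chr8:12266201-12297000, chr19:54782201-54813800, chr3:127714001-127753600, chr3:40287201-40317600 and chr1:57699601-57734000. None of these held H3K4me3 or H3K27ac, and only the chromosome 19 domain held any H3K4me1, 3.0 kb in male WT. The whole set showed the same difference: H3K4me3 was present in 65.4% of the 324 densest domains, 35.5% of the middle 324 and 18.8% of the 324 least dense.

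H3K4me3 and H3K27ac of the same line were both found inside the domains, H3K4me3 more often. At least 1 H3K4me3 region lay in 388 domains, or 39.9% [36.8 to 43.1], and 123 domains held more than 1. H3K27ac was found in 176 domains, or 18.1% [15.7 to 20.7]. The shares were 18.3% and 9.92% for H3K27me3 regions of 10 to under 30 kb, and 8.36% and 5.25% for those under 10 kb, but a long region has more room to hold an island. Per base the order was different. H3K4me3 covered 1.84% of the domains, against 2.07% and 2.28% of the middle and short regions and 2.97% of the span outside H3K27me3. H3K27ac covered 0.907% of the domains, against 1.02%, 1.30% and 4.91%. The coverage of H3K27ac in the domains was thus further below that of the space outside H3K27me3 than the coverage of H3K4me3 was.

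The H3K4me3 islands of the domains were short and weak for their list. The 567 that touched a domain had a median length of 1600 bp and a median of 92.5 reads per kb, against 2600 bp and 135.9 reads per kb for the 20568 islands outside H3K27me3. Of the islands in domains 33.5% were overlapped by H3K27ac, and outside H3K27me3 89.6% were. The 3357 islands that touched only shorter H3K27me3 regions lay between, with 1800 bp, 128 reads per kb and 49.7%. For the 482 islands wholly inside a domain the values were 1400 bp, 81.5 reads per kb and 23.9%. H3K27ac islands touching a domain numbered 233, with a median of 36.7 reads per kb against 45.3 outside H3K27me3. Of these 233 islands 77.3% overlapped H3K4me3. The share was 84.5% for islands touching only shorter H3K27me3 regions and 63.5% outside H3K27me3. The most common state was a domain with none of H3K4me3, H3K27ac and H3K4me1 of the female WT line, at 405 domains (41.7%). H3K4me1 alone was found in 154, H3K4me3 with H3K4me1 in 137, all 3 marks in 128 and H3K4me3 alone in 100. No region of any of the 10 other lists was found in 235 domains (24.2%).

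A few domains held long stretches of active marks. The domain chr1:74062001-74171800 (109.8 kb, 33.4 reads per kb of H3K27me3) had the most of both, 16.4 kb of H3K4me3 and 47.8 kb of H3K27ac. Its neighbour chr1:74027801-74061200 had 15.2 kb of H3K27ac and no H3K4me3. Next by H3K27ac were chr1:74803801-74860600 with 15 kb, chr19:44815401-44936800 with 13.2 kb and chr2:180729001-180806000 with 12.6 kb. The first 2 of these also had 15.6 and 13.0 kb of H3K4me3. Among domains that held H3K27ac at all, the median covered length was 1.6 kb, so these 5 stand far from the usual domain.

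Coverage by active marks differed between the sides of the domain border. In 1-kb steps from the nearer border, H3K27ac covered 5.78% of the bases between 1 and 2 kb outside, 3.17% in the first kb inside and 0.782% between 4 and 5 kb inside. H3K4me3 covered 5.26%, 3.71% and 1.64% at these positions. Both were highest just outside the border, above the 4.83% of H3K27ac and 3.56% of H3K4me3 found between 19 and 20 kb outside. By construction the base pairs next to a border carry no listed H3K27me3, whereas farther out 62.6% of the bases between 10 and 20 kb did. H3K27ac lay in the 20-kb flanks of 383 domains (39.4%), of which 85 had it on both sides, and 249 domains had it in a flank but not inside. For H3K4me3 these numbers were 411, 89 and 177. A region that crosses a border counts on both sides of it. The bases of the flanks outside any H3K27me3 region were covered by H3K27ac at 10.3%, against 4.91% for all bases outside H3K27me3.

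**Figure D2:**
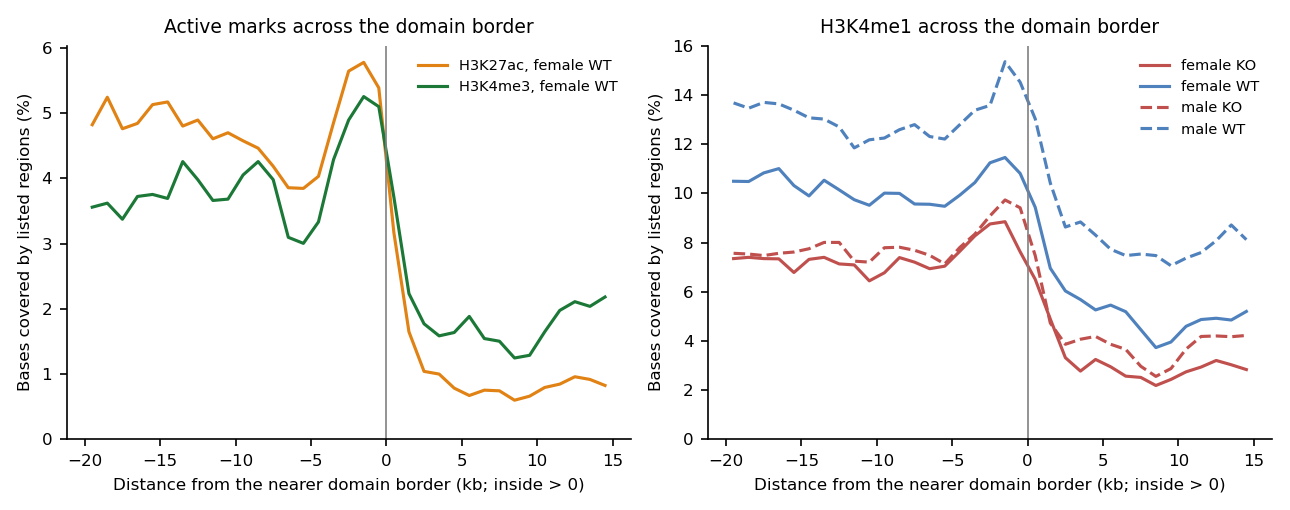
Percentage of bases covered by listed regions, in 1-kb steps from 20 kb outside (negative) to 15 kb inside the nearer border of the 972 domains; left, H3K27ac and H3K4me3 of the female WT line, right, the 4 H3K4me1 lists with KO in red and WT in blue. H3K27ac is at 0.782% at 4 to 5 kb inside, against 5.78% at 1 to 2 kb outside, and in each sex the KO line of H3K4me1 stays below the WT line.

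H3K4me1 in the domains was compared between the KO and WT lines of each sex. It was present in 312 domains in female KO (32.1%) and 442 in female WT (45.5%), and in 491 in male KO (50.5%) and 535 in male WT (55.0%). The covered length was 1407.8 kb in female KO and 2372.8 kb in female WT, a KO over WT ratio of 0.593. In the male lines it was 1777.0 kb in KO and 3888.6 kb in WT, a ratio of 0.457. As a share of the domain bases this is 2.97% in female KO and 5.01% in female WT, and 3.75% in male KO and 8.21% in male WT. H3K4me1 was in none of the 4 lists for 265 domains and in all 4 for 191. In 75 domains it was in both WT lists and in neither KO list. These patterns were counted for domains only, so no share over other regions stands beside them. Over the whole lists, 51.1% of the female and 42.0% of the male WT regions had no overlap with the KO list.

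The KO lists were shorter over the whole genome too, so the ratios were read against the ratio outside H3K27me3. That ratio was 0.675 in the female lines and 0.779 in the male lines. In the male lines the summed ratio of the domains lay below it. The ratio was 0.457 in domains, 0.528 in H3K27me3 regions of 10 to under 30 kb and 0.557 in those under 10 kb. On the chromosomes other than 1, 6, 15, 17 and 19 it was 0.562 in domains against 0.802 outside H3K27me3, and with both lists held to 49780 regions it was 0.542 against 0.846. In the female lines the difference between domains and the rest was smaller and did not hold in every setting. The ratio was 0.593 in domains, 0.610 in the middle and 0.621 in the short regions. On the chromosomes other than 1, 6, 15, 17 and 19 it was 0.752 in domains against 0.686 outside H3K27me3, and with both lists held to 35041 regions it was 0.822 against 0.787, so the order turned round. The 5 chromosomes left out are those on which the KDM6A and MLL4 lists were known to be dense. On chromosomes 1, 6 and 17 the female ratio was 0.549 in domains against 0.746 outside H3K27me3, and on 15 and 19 0.356 against 0.480. In the male lines these values were 0.337 against 0.679, and 0.439 against 0.795. Chromosomes differed widely. In the female lines the domain ratio was below the ratio of the whole chromosome on 10 of 18 chromosomes with domains, and in the male lines on 12 of 17 that gave a ratio.

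**Figure D3:**
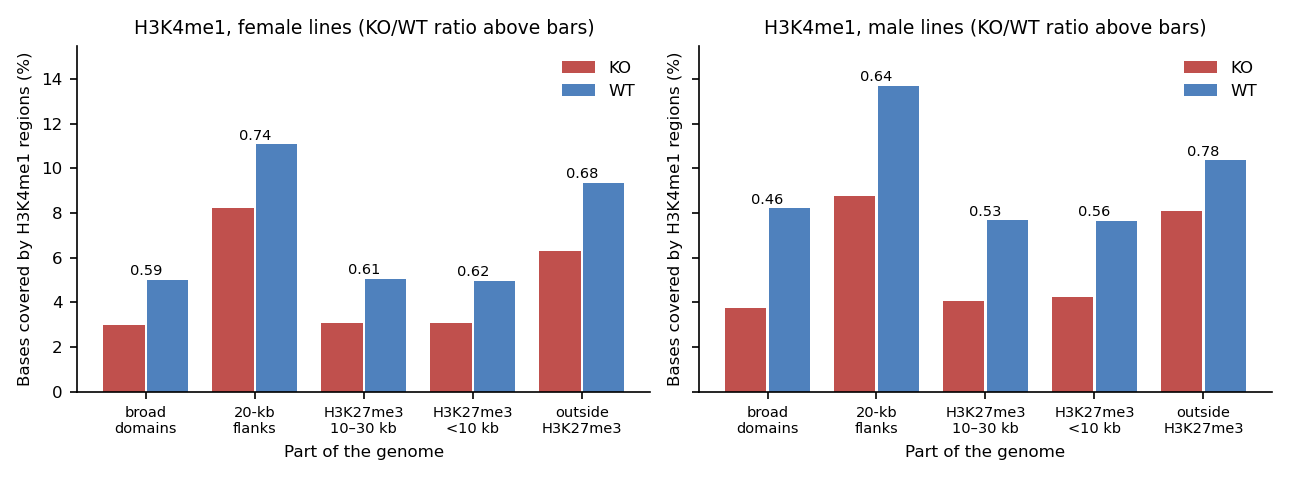
Percentage of bases covered by H3K4me1 regions in KO (red) and WT (blue), in the female lines (left) and male lines (right), for broad domains, their 20-kb flanks, shorter H3K27me3 regions and the span outside H3K27me3; numbers above the bars are the ratio of KO over WT. In the domains the ratio is 0.593 in female and 0.457 in male lines, against 0.675 and 0.779 outside H3K27me3.

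Domain by domain, differences ran in both directions. A domain was taken as measurable when H3K4me1 covered at least 1 kb of it in KO or WT, and was called lower or higher when the genotypes differed by at least 2 times in that direction. In the female lines 261 of 499 measurable domains were lower in KO, or 52.3% [47.8 to 56.8], and 132 were higher, or 26.5% [22.6 to 30.6]. The background of all H3K27me3 regions was 52.2% lower and 26.2% higher, and that of 40-kb tiles of the genome 46.5% lower and 15.7% higher. In the male lines 315 of 639 were lower in KO, or 49.3% [45.4 to 53.2], and 153 were higher, or 23.9% [20.7 to 27.4]. There the background of all H3K27me3 regions was 52.7% lower and 22.6% higher, and that of tiles 37.6% and 18.9%. The share of broad domains called lower was thus near that of H3K27me3 regions of any length. The split also depended on the length of the lists. With KO and WT held to the same number of regions, 160 domains were lower and 179 higher in female KO, and 248 were lower and 206 higher in male KO. No share over other regions stands beside these counts, so whether the change is particular to the domains is not known. A lower call was shared by 156 domains, which were 59.8% of the female and 49.5% of the male ones, and a higher call by 35, which were 26.5% of the female and 22.9% of the male ones. Over all H3K27me3 regions a lower call in both sexes made up 53.1% of the female and 37.0% of the male lower calls, and over tiles 48.6% and 47.9%. For higher calls these shares were 22.5% and 18.3% over all H3K27me3 regions, and 30.9% and 20.5% over tiles. The median difference, KO minus WT, was -1.4 kb per measurable domain in the female lines and -1.6 kb in the male lines.

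**Figure D4:**
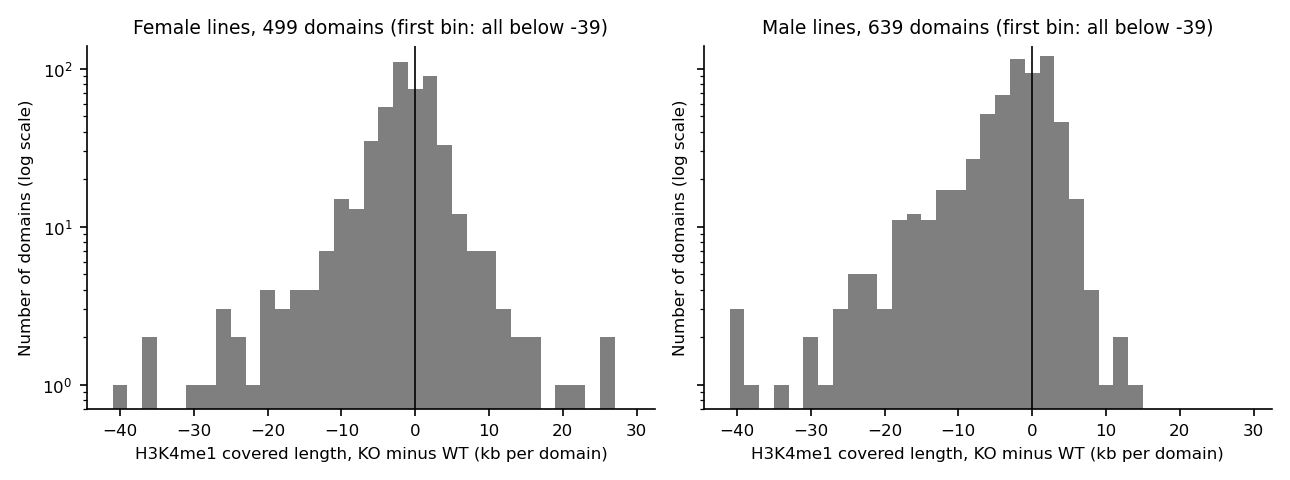
Histograms of the H3K4me1 covered length, KO minus WT in kb per domain, for the 499 measurable domains of the female lines (left) and the 639 of the male lines (right), with the number of domains on a log scale and all values below -39 in the first bin. The left tail is the longer one in both, down to -84.8 kb in the female and -79.4 kb in the male lines, against 25.2 and 14.4 kb on the right.

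Differences between the KO and WT lists in both directions were also visible in single H3K4me1 regions. Of the 550 female KO regions that touched a domain 255, or 46.4% [42.1 to 50.6], had no overlap with the WT list, against 23.4% of the whole list and 35.8% of KO regions that touched only shorter H3K27me3 regions. Of the 899 female WT regions that touched a domain 605, or 67.3% [64.1 to 70.4], had no overlap with the KO list, against 51.1% of the whole list and 59.8% with shorter H3K27me3 regions. In the male lines it was 335 of 829 KO regions, or 40.4% [37.0 to 43.8]. The whole male KO list had 25.4%, and its regions that touched only shorter H3K27me3 regions had 36.7%. Of the male WT regions it was 830 of 1331, or 62.4% [59.7 to 65.0]. The whole male WT list had 42.0%, and its regions with shorter H3K27me3 regions had 56.0%. Regions with shorter H3K27me3 regions thus also lay above the whole list in each case, so this is not particular to the domains. H3K4me1 regions in domains were listed in a single genotype more often than the whole list, in both directions and in both sexes. They were also shorter, with medians of 2600 bp in female KO, 2200 bp in female WT, 2200 bp in male KO and 2600 bp in male WT, against 3200, 2800, 2800 and 3000 bp over the whole lists. In the same order, regions in domains with no overlap had medians of 2200, 2200, 2000 and 2400 bp. Those with an overlap had 3000, 2800, 2200 and 2800 bp. The part of the listing threshold in these shares was not tested.

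The KO over WT ratio of H3K4me1 was nearer to 1 in domains that held H3K4me3 in the female WT line. In the 388 domains with H3K4me3, H3K4me1 covered 5.61% of the bases in female KO and 7.22% in female WT, a ratio of 0.777. In the 584 domains without it the values were 0.896% in female KO and 3.26% in female WT, a ratio of 0.274. The male lines gave 6.59% in KO and 11.2% in WT with H3K4me3 (ratio 0.587), and 1.52% in KO and 5.84% in WT without it (ratio 0.260). Shorter H3K27me3 regions showed the same order. Those of 10 to under 30 kb gave ratios of 0.872 with and 0.342 without H3K4me3 in the female lines, and 0.885 and 0.271 in the male lines. Of the domains with H3K4me3, 236 held H3K4me1 in female KO and 265 in female WT, and 336 did in male KO and 286 in male WT. Of the domains without it these numbers were 76 in female KO and 177 in female WT, and 155 in male KO and 249 in male WT.

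Among domains called lower in both sexes, the one with the largest summed shortfall of H3K4me1 in KO was the chromosome 1 domain with the most H3K27ac. At chr1:74062001-74171800, H3K4me1 covered 6.0 kb in female KO and 90.8 kb in female WT, and 3.0 kb in male KO and 82.4 kb in male WT. At chr19:44815401-44936800 it covered 9.8 kb in female KO and 39.6 kb in female WT, and 1.8 kb in male KO and 41.2 kb in male WT. In both domains each KO line had less than each WT line, by at least 29.8 kb within a sex. The next in this order were chr19:10398601-10479200, chr1:135783001-135836600 and chr11:81828401-81872000. The last 2 of these held no H3K4me1 at all in either KO list, against 22.4 and 25.6 kb in female WT and 38.6 and 34.2 kb in male WT. Over all domains with less H3K4me1 in KO the summed shortfall was 1639.6 kb in the female lines, 13.1% of it in the leading 5 domains of that pair, and 2699.6 kb in the male lines, 9.99% of it in the leading 5.

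Gains in both KO lines were smaller. The leading one, chr14:63859401-63892000, had 25 kb of H3K4me1 in female KO and none in female WT, and 4.0 kb in male KO and none in male WT. At chr5:115801601-115918800 it covered 12.2 kb in female KO and 4.0 kb in male KO, with none in either WT list. The remaining 3 of the leading 5, chr8:59783601-59820800, chr11:23957001-23990600 and chr11:109146201-109183800, had 2.0 to 8.6 kb in female KO and 0.0 to 0.8 kb in female WT, and 3.2 to 10.4 kb in male KO and 0.0 to 1.2 kb in male WT. The Hox intervals did not move together. The Hoxb interval had 10.2 kb in female KO and none in female WT, but 2.6 kb in male KO and 80.8 kb in male WT. The Hoxa interval had 8.6 kb in female KO and 7.8 kb in female WT, and 9.2 kb in male KO and 28.6 kb in male WT. The Hoxc interval had 7.0 kb in female KO and 11.8 kb in female WT, and 12.4 kb in male KO and 6.6 kb in male WT.

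KDM6A and MLL4 regions were found in a minority of the domains. The line labelled KO had a KDM6A region in 63 domains, or 6.48% [5.02 to 8.22], and the line labelled WT in 24, or 2.47% [1.59 to 3.65]. MLL4 was found in 81 domains in KO, or 8.33% [6.67 to 10.3], and in 37 in WT, or 3.81% [2.69 to 5.21]. Any of the 4 lists had a region in 159 domains (16.4%). KDM6A regions of both lines were held by 4 domains, which is 6.35% of those in KO and 16.7% of those in WT, and MLL4 regions of both by 6, which is 7.41% and 16.2%. Region by region, sharing was low across the whole KDM6A lists: 4.11% of the KO regions touching domains overlapped a WT region, against 4.36% of the other KO regions, and 7.14% of the WT regions touching domains overlapped a KO region, against 9.01% of the others. For MLL4 it was 3.6% against 4.78% of the KO regions, and 9.30% against 28.7% of the WT regions. The 9.30% is 4 of 43 regions. Of these 43 regions 33 lay on chromosomes 15 and 19, where the MLL4 list of KO had 549 of its 13152 regions. The part of chromosome in this share was not tested. Regions of both KDM6A and MLL4 lay somewhere inside 22 domains in KO and 8 in WT, whether or not they overlapped. Of the KDM6A regions touching domains, 13 in KO (17.8%) overlapped an MLL4 region of that line, against 33.3% of the other regions. In WT it was 7 of 28 regions (25%), against 13.3% of the others. Of these 28 regions 17 lay on chromosomes 15 and 19, where MLL4 of WT had 5.47 regions per Mb, against 0.829 over the whole span. The part of chromosome in the WT share was not tested either.

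The 20-kb flanks held a KDM6A region for 75 domains in KO and 47 in WT, and an MLL4 region for 127 in KO and 39 in WT. Counted by midpoint, KDM6A regions of KO numbered 1.46 per Mb inside domains, 2.30 in flanks and 2.32 over the whole span, and KDM6A regions of WT 0.528, 1.43 and 1.11. MLL4 regions of KO numbered 2.22 inside, 4.45 in flanks and 5.12 over the span. MLL4 of WT, unlike the other lists, was not sparser inside than over the span, with 0.886 inside, 0.996 in flanks and 0.829 over the span. Shorter H3K27me3 regions held fewer per Mb in most lists. Those of 10 to under 30 kb had 1.21 for KDM6A of KO, 0.725 for KDM6A of WT, 1.34 for MLL4 of KO and 0.503 for MLL4 of WT, and those under 10 kb had 0.957, 0.441, 1.40 and 0.441. KDM6A of WT was thus denser in the regions of 10 to under 30 kb than in the domains. These values stand for all chromosomes together. Chromosomes 15 and 19 had the most domains per 100 H3K27me3 regions, 7.55 and 9.56. The part of chromosome in the difference between domains and shorter regions was not tested. For MLL4 of WT, chromosomes 15 and 19 held 33 of the 43 regions that touched domains. On the chromosomes other than 1, 6, 15, 17 and 19, MLL4 of WT numbered 0.147 per Mb inside, 0.469 in flanks and 0.517 over the span. There all 4 lists had 0.140 to 0.307 times as many regions per Mb inside domains as over the span, from 4 to 11 regions a list, and 0.467 to 0.906 times as many in flanks. On the same chromosomes only 1.22% of the domains held KDM6A of KO, 0.868% KDM6A of WT, 1.56% MLL4 of KO and 0.694% MLL4 of WT. Of the regions touching domains, 50 of 73 for KDM6A and 95 of 111 for MLL4 of the KO line lay on chromosomes 1, 6 and 17, and 17 of 28 for KDM6A of WT on chromosomes 15 and 19. Over the whole KO lists, 3349 of 5961 KDM6A and 6900 of 13152 MLL4 regions lay on chromosomes 1, 6 and 17. Over the whole WT lists, 1126 of 2847 KDM6A and 867 of 2130 MLL4 regions lay on chromosomes 15 and 19. The part of chromosome copy number in these counts was not tested.

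**Figure D5:**
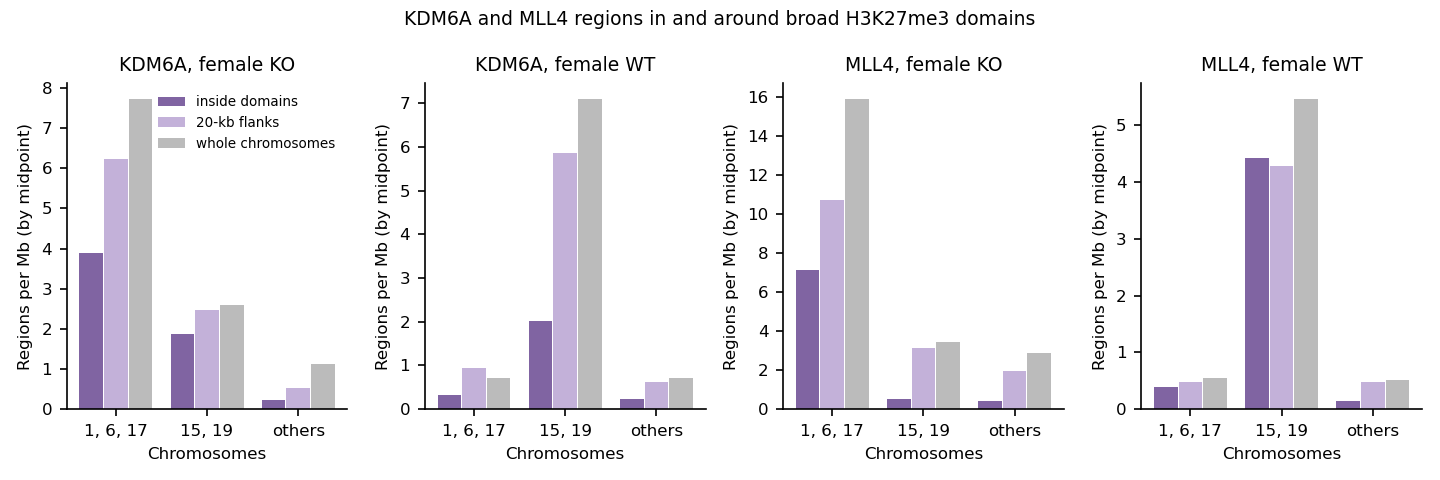
KDM6A and MLL4 regions per Mb, counted by midpoint, inside the domains, in their 20-kb flanks and over whole chromosomes, for chromosomes 1, 6 and 17, for 15 and 19 and for the others; each panel is 1 list with its own scale. Inside-domain values are below those of the whole chromosomes in every group, and most regions inside domains lie on chromosomes 1, 6 and 17 in KO and on 15 and 19 in WT.

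The binding regions inside domains carried fewer active marks than the rest of their lists. H3K27ac of female WT overlapped 9.59% of the KDM6A regions of KO that touched a domain, against 34.8% of the other regions of that list, and 17.9% of those of WT, against 40.4%. For MLL4 the shares were 13.5% against 51.6% in KO and 23.3% against 56.7% in WT. In domains these 4 shares rest on 7, 5, 15 and 10 regions in that order. H3K27ac also covered fewer bases in domains (0.907%) than outside H3K27me3 (4.91%), and its part in these shares was not tested. In length and reads the binding regions in domains were like the rest. Their median lengths were 1200 to 1600 bp against 1400 bp, and their median reads 35 to 45 against 40 to 44. Of the 8 domains with both KDM6A and MLL4 regions of WT, the 5 with the most reads in those regions were chr19:44815401-44936800, chr15:7318801-7371800, chr15:80394401-80439400, chr1:74062001-74171800 and chr1:164822601-164854400. At chr15:7318801-7371800, H3K4me1 covered none in female KO and 11 kb in female WT, and 6.0 kb in male KO and 2.4 kb in male WT.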

How the data were processed

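The deposited lists give a chromosome, start, end and a whole number per region and have no header. The number was taken as the read count the authors deposited for the region, a reading that rests on the values. The submitters' processing notes name mm9, SICER 1 and Bowtie 1.1.2 without their roles; the control library and threshold are not stated. Region borders lie on 200 bp steps, and neighbours stay apart from a gap of 800 bp in H3K27me3, so a long domain depends on how gaps were joined. The 12 libraries were grouped by antibody, sex and genotype; the input library was not analysed here.

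Overlap meant at least 1 bp. Positions count from 1. The whole span (2569 Mb) runs between the outermost regions of the 11 lists on each chromosome. Flanks were 20 kb per side, without domain bases for densities per Mb and for the coverage of whole flanks. Counts of domains and the 1-kb steps from the border kept all bases. Each step outside held 1944 windows, some of which lie in a neighbouring domain. Named domains followed a rule: the 10 longest, the 5 densest and 5 least dense, the 5 with the most H3K4me3 or H3K27ac, the 5 leading H3K4me1 differences per direction past 2 times in both sexes, and up to 5 with KDM6A and MLL4 of WT. The members, lists and alternatives were chosen with earlier results of these data known. Computations used Python 3.11.15, numpy 2.4.6, pandas 2.3.3, scipy 1.17.1 and matplotlib 3.10.9, and overlaps were checked against bedtools 2.31.1 and tested on simulated data. With 1 library per group no test was made.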

Additional observations from a re-analysis of the deposited data

Results flagged for a closer look

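With 1 library per group none of the following differences between the sexes was tested. The KO over WT ratio of H3K4me1 covered length in the domains went in opposite directions in the female and male lines on 6 chromosomes. It was 0.902 in the female and 1.15 in the male lines on chromosome 3, 0.276 and 3.26 on chromosome 4, 0.878 and 1.23 on chromosome 8, and 0.765 and 1.73 on chromosome 12. On chromosome 5 it was 1.30 in the female and 0.687 in the male lines, and on chromosome 11 it was 1.12 and 0.391. These chromosomes held 25, 10, 22, 38, 65 and 94 domains in that order, and for chromosomes 4 and 12 the covered length was at most 35.6 kb in any of the 4 lists. Single domains also went opposite ways past 2 times. Lower in female KO and higher in male KO were 32, which is 12.3% of the female lower and 20.9% of the male higher calls. Higher in female KO and lower in male KO were 33, which is 25% of the female higher and 10.5% of the male lower calls. Opposite calls were not counted over other regions, so no background stands beside these shares.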

How the results depend on the processing

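No paired analysis was possible because each group held 1 library and no result came from a test. Alternatives were planned except 1 chosen after seeing the data, which left out the 5 domains with the largest H3K4me1 shortfall; ratios were then 0.644 in the female and 0.483 in the male lines. Restricting to autosomes could change nothing, since chromosome X held no domain. Of the other planned values, 28 stayed within their interval, within 1.5 times (counts) or within 10% (ratios), the ratios with other lengths or joined neighbours among them. The other 58 moved; where fewer domains or regions enter, this follows from the setting, and otherwise the cause was not tested. At 50 kb or longer there were 291 domains with a median of 31.4 reads per kb; 49.8% held H3K4me3, 26.8% H3K27ac, 11.3% KDM6A of KO, 4.12% KDM6A of WT and 12.4% MLL4 of KO, and 90 and 53 were lower and higher in female KO, 109 and 56 in male KO. At 20 kb or longer there were 2290, with 26.9 reads per kb, 31.4% with H3K4me3, 15.6% with H3K27ac, 4.15% with KDM6A of KO, 5.33% with MLL4 of KO and 2.23% with MLL4 of WT, and 510, 254, 648 and 311 in the order of calls above. Joining neighbours within 5 kb gave 2515 domains, 21.5 reads per kb, 22.3% with H3K27ac and calls of 649, 346, 843 and 396. Without chromosomes 1, 6, 15, 17 and 19 the ratios were 0.752 and 0.562. Of 274 measurable domains 132 were lower and 83 higher in female KO, and of 353 in the male lines 150 were lower. These are 48.2%, 30.3% and 42.5%, against 51.1%, 27% and 50% of all H3K27me3 regions there and 45.8%, 15.9% and 35.9% of tiles. The domain shares called lower thus lay below those of all H3K27me3 regions and above those of tiles. Of all domains there, 1.22%, 0.868%, 1.56% and 0.694% held KDM6A of KO, KDM6A of WT, MLL4 of KO and MLL4 of WT. With the regions of most reads kept, down to the median of each list, 14.6% held H3K4me3, 5.25% H3K27ac, 2.67% KDM6A of KO, 1.44% KDM6A of WT, 3.09% MLL4 of KO and 1.65% MLL4 of WT; ratios were 0.444 and 0.294, with 167 and 64 domains lower and higher in female KO and 73 higher in male KO. At equal numbers of regions the ratios were 0.822 and 0.542, and 160 domains were lower in female KO, fewer than the 179 higher, so the order of these counts turned round. With most of an island required inside, 36.1% held H3K4me3 and 13.5% H3K27ac. Counting the 20-kb flanks as well, 12.1% held KDM6A of KO, 6.79% KDM6A of WT, 17.8% MLL4 of KO and 6.89% MLL4 of WT. A region absent from a list may hold signal below the authors' threshold, and the unknown depth limits every comparison between lists.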
